A study of Mus musculus with 60 samples.

Results

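RNA of 4T1 cells that carried a short hairpin against PBRM1 was compared with RNA of 4T1 cells that carried the pLKO vector, both after 4 days of TGFβ1 at 5 ng/ml. The comparison took 3 knockdown and 3 control libraries of the 60 libraries in the series, and 13854 of the 55487 genes in the 4T1 count table had enough counts to be tested. 4T1 is a mouse mammary carcinoma line described in the labels as triple negative. The knockdown cells are labelled shPBRM1 and the control cells pLKO, the backbone vector. How many hairpins were used, and whether the cells were a pool or a clone, is not stated in the labels. A matching set of 3 knockdown and 3 control libraries without TGFβ1 (0 d) is used for comparison, and so are NMuMG cells, a mouse mammary epithelial line, with a PBRM1 knockout and their sgCT controls after 72 h of the same TGFβ1 dose. The labels do not say whether the 0 d cells of 4T1 were also kept in culture for 4 days, so exposure to TGFβ1 and time in culture cannot be told apart. Labels call the 3 libraries of a group biological replicates. The p-values set each difference against the spread between libraries within a group, taken over all groups of the fit. The labels give no separate hairpins or lines among the replicates. Loss of PBRM1 and other differences between the knockdown and control cells therefore cannot be told apart.

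PBRM1 (polybromo, BAF180) is the bromodomain subunit that defines PBAF, a SWI/SNF chromatin remodeller that also holds ARID2, BRD7 and PHF10. SWI/SNF complexes use ATP to slide or eject nucleosomes and so open or close regulatory DNA. TGFβ1 signals through a receptor kinase to SMAD transcription factors and drives epithelial cells towards a mesenchymal state (EMT), with new matrix production and motility. In mammary carcinoma cells the same ligand also alters the secretion of cytokines and matrix proteases.

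Library totals at 4 d were 22.8 to 31.1 M counts in the knockdown and 23.3 to 25.7 M in the control (M, units of 1e+06 counts). Levels are CPM, counts scaled to libraries of 1 M with TMM factors, which were 1.02 to 1.03 in the knockdown and 0.983 to 0.988 in the control. The share of counts in the 10 highest genes was 4.95 to 5.14% in the knockdown and 5.38 to 5.45% in the control, and the share of ribosomal protein genes was 4.64 to 4.74% in the knockdown and 4.93 to 4.97% in the control. No 4 d library stood apart from its group. The epithelial markers Epcam, Cdh1, Krt8 and Krt18 were abundant in all 6 libraries. Of the 12 leukocyte markers 6 had no count in any of the 6 libraries, and the summed level of the list was 0.377 to 0.515 CPM in the knockdown and 0.873 to 1.14 CPM in the control. The 8 endothelial markers summed to 0.498 to 0.815 CPM in the knockdown and 0.35 to 0.833 CPM in the control. The 9 fibroblast markers summed to 241 to 254 CPM in the knockdown and 329 to 350 CPM in the control. Dcn, Lum and Dpt had 0 counts in all 6 libraries, and only 2 of the 9 markers were tested. Of these 2, Pdgfra went the other way from the sum. It stood at 29.4 to 33.5 CPM in the knockdown and 23.8 to 27 CPM in the control (log2 0.29). For the receptors behind the triple negative label, Pgr had no count in any of the 6 libraries. Erbb2 stood at 63.5 to 67.2 CPM in the knockdown and 64.6 to 71.1 CPM in the control, and Esr1 at 14.3 to 15.9 CPM in the knockdown and 12.5 to 12.9 CPM in the control.

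The targeted mRNA was low in every knockdown library. Pbrm1 (ENSMUSG00000042323, GRCm38 chromosome 14, 31019138 to 31121592, plus strand) stood at 33.4, 31.5 and 28.4 CPM in the knockdown, against 222.0, 220.0 and 226.3 CPM in the control. The groups lay far apart, and the log2 fold change was -2.83 (SE 0.0414, edgeR adjusted p = 1.83e-33). The residual mRNA in the knockdown rested on 2550 counts over the 3 libraries, against 16357 in the control. In bulk RNA, fewer cells with the transcript and less transcript per cell cannot be told apart.

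Most other SWI/SNF subunits moved by small amounts, and more of them rose than fell. Of 28 subunits listed 26 were tested: 13 were called higher and 5 lower, Pbrm1 among them, and 8 did not pass. With library totals alone as the scaling, or with no filter on low counts, 3 were called lower. Over all tested genes 27.8% were called higher and 27.3% lower, so the share called was 55.2% in all. The other PBAF-specific subunits did not move together. Arid2, the AT-rich interaction subunit of PBAF, rose to 128.3, 126.0 and 129.2 CPM in the knockdown, against 113, 105.5 and 105.6 CPM in the control (log2 0.24, SE 0.034). Brd7, its second bromodomain subunit, averaged 97.8 ± 1.92 CPM in the knockdown and 87.8 ± 1.41 CPM in the control (SD, n = 3 each, log2 0.16). Phf10 averaged 76.2 ± 1.87 CPM in the knockdown and 81.0 ± 3.21 CPM in the control, a log2 fold change of -0.09 whose call (adjusted p = 0.0455 by edgeR) was lost with 3 of the 6 libraries left out in turn. Those were control replicate 3 (adjusted p = 0.262) and knockdown replicates 1 (0.101) and 3 (0.108).

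Among the subunits shared by several SWI/SNF forms, the ATPase Smarca4 (BRG1) rose and the alternative ATPase Smarca2 (BRM) fell. Smarca4 averaged 381 ± 11.6 CPM in the knockdown and 312 ± 2.82 CPM in the control (log2 0.29), and Smarca2 averaged 91.2 ± 2.71 CPM in the knockdown and 107 ± 4.93 CPM in the control (log2 -0.23). Smarcd1 (BAF60A) had the largest rise of those described here, at 42.3, 40.8 and 42.4 CPM in the knockdown against 30.0, 28.7 and 31.2 CPM in the control (log2 0.48, SE 0.0475). Actl6a (BAF53A) rose by 0.38 and the core subunit Smarcb1 by 0.25 on the log2 scale. Of Actl6a's exon bases 11.6% overlap Mrpl47 on the opposite strand, and the strand setting of the counting is not stated in the labels. The 3 subunits listed for the non-canonical complex, Brd9, Bicra and Bicral, did not pass, with log2 values of 0.09, -0.04 and -0.07.

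**Figure D1:**
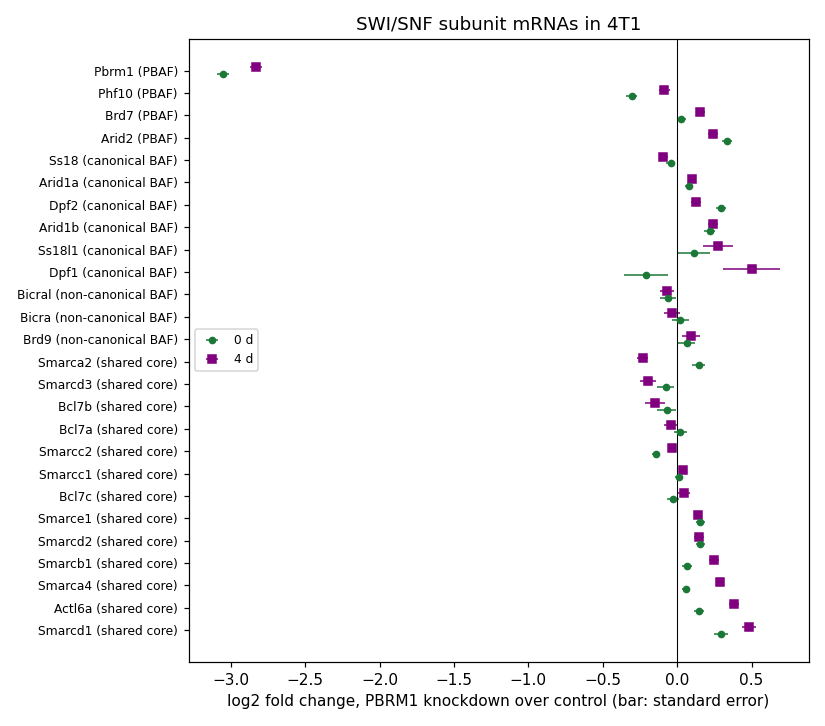
Log2 fold changes of the 26 tested SWI/SNF subunit mRNAs, PBRM1 knockdown over control, at 0 d (circles) and 4 d of TGFβ1 (squares), with standard errors as bars and the complex each subunit belongs to in brackets. Pbrm1 stands alone at -3.05 at 0 d and -2.83 at 4 d, and the other subunits lie close to 0.

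At 4 d the differences were many, mostly small, and of about equal number in both directions, while the large ones were mainly decreases. Of 13854 genes 7643 were called at an adjusted p under 0.05, 3857 of them higher and 3786 lower in the knockdown. With library totals alone as the scaling, 4902 were called higher and 3054 lower, so the split between directions depends on the scaling. A further 2-fold threshold left 710 genes (5.12%), of which 246 (1.78%) were higher and 464 (3.35%) lower. In 8032 genes (58%) the 3 knockdown libraries all lay on the same side of the 3 control libraries. The biological coefficient of variation was 2.95%, so a call by itself can stand for a change of a few percent. The median log2 fold change over all tested genes was 0.00599.

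**Figure D2:**
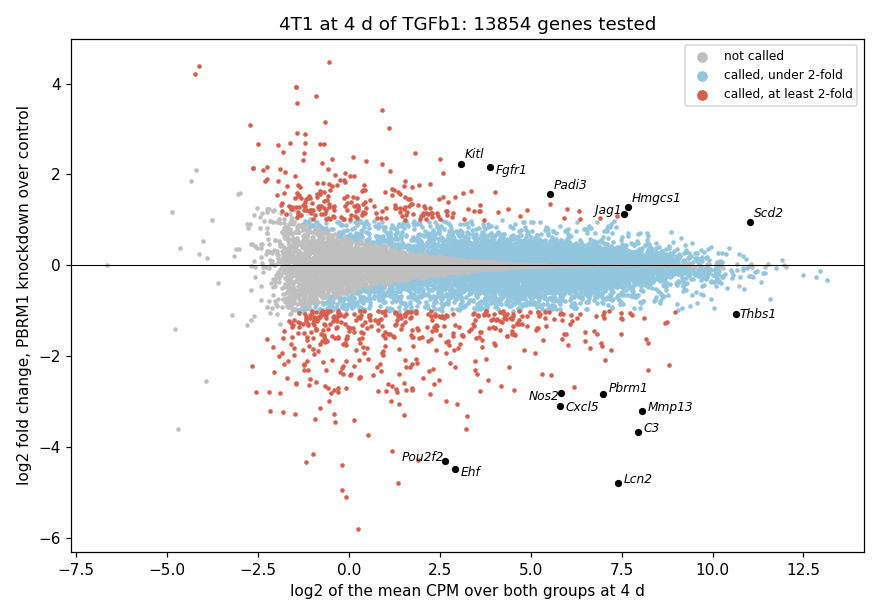
Log2 fold change of each of the 13854 tested genes at 4 d, PBRM1 knockdown over control, against the log2 of its mean CPM over both groups. Genes called and at least 2-fold apart are red (710 genes), and the named genes include Lcn2 at -4.78 and Kitl at 2.22.

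Of all genes above 10 CPM in the higher group with separate libraries, Lcn2 had the largest decrease. Lcn2 (ENSMUSG00000026822, chromosome 2, 32384633 to 32388252) encodes lipocalin 2, an iron-siderophore binding protein secreted in inflammation. It stood at 9.35, 12.3 and 14.3 CPM in the knockdown, against 310.1, 323.1 and 340.1 CPM in the control (log2 -4.78, SE 0.0625). C3 (ENSMUSG00000024164, chromosome 17, 57203970 to 57228136), the central complement component, stood at 32.9, 36.0 and 40.0 CPM in the knockdown, against 472.6, 479.6 and 430.9 CPM in the control (log2 -3.68, SE 0.0521). No knockdown library came near the control libraries in either gene.

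Mmp13 (ENSMUSG00000050578, chromosome 9, 7272514 to 7283331), the collagenase 3 that cleaves fibrillar collagen, stood at 47.4, 48.1 and 60.9 CPM in the knockdown, against 433.9, 515.8 and 489.6 CPM in the control (log2 -3.21). Cxcl5, a chemokine that attracts neutrophils, stood at 9.82, 10.3 and 15.2 CPM in the knockdown, against 99.9, 87.4 and 110.4 CPM in the control (log2 -3.10). Nos2, the inducible nitric oxide synthase, stood at 12.5, 15.7 and 15.1 CPM in the knockdown, against 89.2, 112.5 and 98.4 CPM in the control (log2 -2.80). These 3 genes were named by a rule that required separate groups.

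Lower-expressed genes with large decreases included transcription factors. Ehf, an ETS factor of epithelial cells, averaged 0.649 ± 0.146 CPM in the knockdown and 14.4 ± 0.818 CPM in the control (log2 -4.48). Pou2f2, the octamer factor OCT2 known from B cells, averaged 0.602 ± 0.0473 CPM in the knockdown and 11.9 ± 1.12 CPM in the control (log2 -4.30). The growth regulatory Schlafen gene Slfn2, the microsomal glutathione transferase Mgst1, the CDC42 effector Cdc42ep5 and the ectoenzyme Bst1 (CD157) fell by 3.59, 3.31, 3.06 and 2.99 on the log2 scale. With Pbrm1, these are the 12 genes of largest decrease among those above 10 CPM in the higher group with separate libraries.

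Among the 12 largest increases by the same rule were a cytokine, a receptor and an activin subunit. Kitl (ENSMUSG00000019966, chromosome 10, 100015630 to 100100416), the stem cell factor that binds KIT, stood at 14.2, 14.3 and 13.0 CPM in the knockdown, against 2.96, 2.46 and 3.54 CPM in the control (log2 2.22, SE 0.103). Fgfr1 (ENSMUSG00000031565, chromosome 8, 25513654 to 25575718), a fibroblast growth factor receptor, stood at 22.8, 23.5 and 26.7 CPM in the knockdown, against 5.28, 6.59 and 4.28 CPM in the control (log2 2.16, SE 0.0992). Inhbb, which encodes the βB subunit of activins and inhibin B, stood at 23.4, 24.9 and 24.4 CPM in the knockdown, against 7.69, 9.05 and 7.12 CPM in the control (log2 1.60). Separate groups were a condition of the rule that named these 3 genes.

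The remaining increases of this group spanned 1.25 to 1.63 on the log2 scale. They were the adaptor Afap1l2 (1.63), the magnesium transporter family member Nipal1 (1.59), the arginine deiminase Padi3 (1.57), the MUSK adaptor Dok7 (1.50), the semaphorin Sema7a (1.35), the chloride channel family member Ttyh2 (1.34), and 3 enzymes of cholesterol synthesis described with their pathway. Padi3 stood at 69.4, 67.3 and 69.2 CPM in the knockdown, against 24.8, 22.7 and 21.5 CPM in the control.

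**Figure D3:**
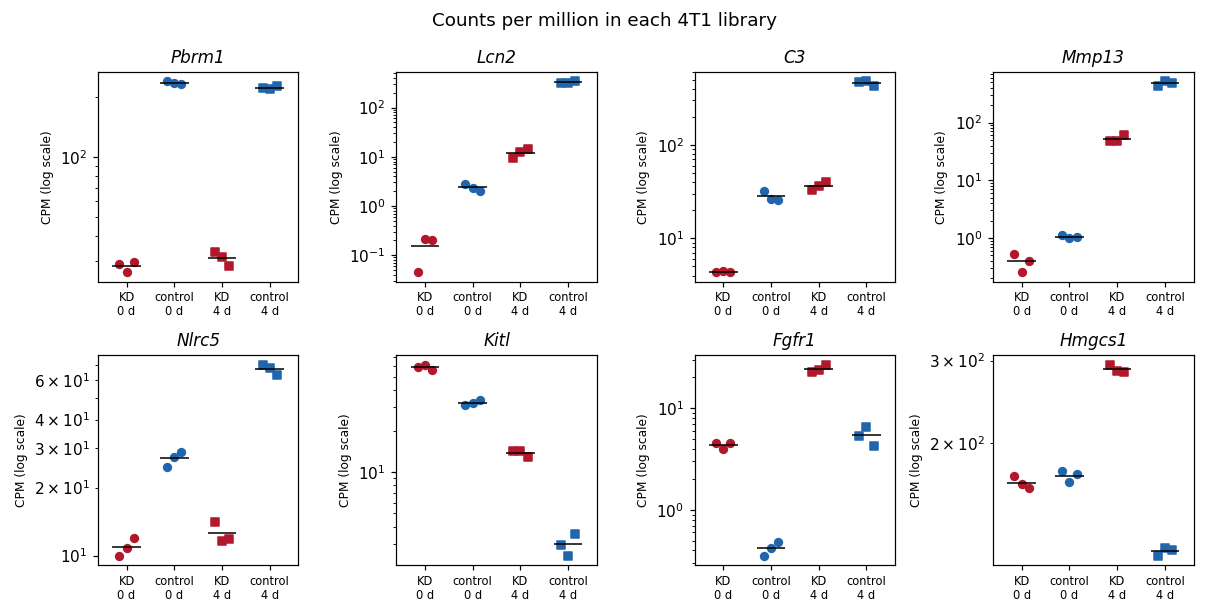
CPM of 8 genes in each of the 12 4T1 libraries on log axes, with knockdown (KD, red) left of control (blue) at 0 d (circles) and 4 d of TGFβ1 (squares), and group means as bars. At 4 d Pbrm1, Lcn2, C3, Mmp13 and Nlrc5 lie lower in all 3 knockdown libraries, and Kitl, Fgfr1 and Hmgcs1 lie higher.

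RefSeq promoter windows (250 bases before to 50 after the gene start, build GRCm38.p6) were found for 19 of these 24 genes. They were searched on both strands for AP-1 (TGANTCA), TEAD (GGAATG), SMAD (CAGACA) and E-box (CACGTG) letters and for the interferon-stimulated response element (ISRE). Among the 8 genes with decreases that had a window, the AP-1, SMAD, ISRE and E-box letters were each found in 1 and the TEAD letters in 3. These 8 include Pbrm1, the target of the hairpin, and the E-box was in its window. Among the 11 genes with increases, the SMAD letters were found in 2, the AP-1, ISRE and E-box letters in 1 each, and the TEAD letters in 0. Over all 32851 windows of the table the shares were 7.81% for AP-1, 14.7% for TEAD, 21% for SMAD, 3.44% for ISRE and 7.15% for E-box. These shares are per window, whereas a gene was counted if any of its windows held the letters. Dhcr7, which has 3 windows, gave both the AP-1 and the E-box letters among the increases. The windows of Lcn2 (chr2:32387690-32387989, minus strand), Mmp13 (chr9:7272264-7272563, plus strand) and Kitl (chr10:100015571-100015870, plus strand) are shown because they belong to leading genes of both directions. Capitals mark SMAD letters in Lcn2 and Kitl, and in Mmp13 the ISRE followed by the AP-1 letters. These motifs do not overlap each other, and a match to the letters is not evidence of binding.
Lcn2: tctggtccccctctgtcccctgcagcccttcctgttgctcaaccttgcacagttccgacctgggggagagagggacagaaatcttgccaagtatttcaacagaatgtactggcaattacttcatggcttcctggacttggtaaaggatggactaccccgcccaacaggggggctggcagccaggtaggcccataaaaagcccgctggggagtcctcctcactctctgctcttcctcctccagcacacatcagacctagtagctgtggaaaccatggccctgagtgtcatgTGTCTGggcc
Mmp13: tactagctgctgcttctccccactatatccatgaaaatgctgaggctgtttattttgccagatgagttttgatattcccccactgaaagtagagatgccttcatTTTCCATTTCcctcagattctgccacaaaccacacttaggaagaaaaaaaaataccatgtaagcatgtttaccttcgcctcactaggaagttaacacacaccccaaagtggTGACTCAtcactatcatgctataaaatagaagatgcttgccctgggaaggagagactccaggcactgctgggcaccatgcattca
Kitl: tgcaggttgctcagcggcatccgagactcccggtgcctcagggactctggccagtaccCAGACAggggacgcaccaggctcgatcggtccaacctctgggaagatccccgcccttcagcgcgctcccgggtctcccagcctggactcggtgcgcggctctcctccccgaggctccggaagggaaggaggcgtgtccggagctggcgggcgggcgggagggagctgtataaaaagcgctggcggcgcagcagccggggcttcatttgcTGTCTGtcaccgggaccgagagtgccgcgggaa

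Interferon response genes fell almost throughout. Of 50 listed genes 48 were tested, and 43 were called lower, 19 of them at least 2-fold, 0 higher, and 5 did not pass. With control replicate 2 left out 1 was called higher, and with library totals alone 2 were. The median log2 fold change of the list was -0.77, beside 0.00599 over all tested genes. Ifi44, an interferon-induced protein, stood at 4.36, 3.91 and 4.25 CPM in the knockdown, against 20.9, 29.4 and 21.7 CPM in the control (log2 -2.52, SE 0.115). Cmpk2, a mitochondrial nucleotide kinase induced by interferon, stood at 0.690, 0.882 and 1.11 CPM in the knockdown, against 5.01, 7.38 and 4.76 CPM in the control. The groups of both genes stood apart. Oas2, which makes the 2-5A activator of RNase L, was near the detection limit in the knockdown at 0.0314, 0 and 0.214 CPM, against 1.26, 2.22 and 1.49 CPM in the control. Interferon-induced genes of the OAS, IFIT and GBP families have near-identical copies whose reads can be split between them.

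Antigen presentation by MHC class I was lower as well. All 20 listed genes were tested, 15 were called lower and 1 higher, and the median was -0.43. Nlrc5 (ENSMUSG00000074151, chromosome 8, 94434356 to 94527272), the transactivator of class I genes, stood at 14.1, 11.7 and 11.9 CPM in the knockdown, against 69.9, 67.3 and 63.3 CPM in the control (log2 -2.40, SE 0.0657). B2m, the invariant light chain, stood at 381, 384.8 and 405 CPM in the knockdown, against 731.1, 762 and 755.3 CPM in the control (log2 -0.94). Each knockdown library was below each control library in both genes. The heavy chain H2-D1 averaged 256 ± 6.96 CPM in the knockdown and 603 ± 27.1 CPM in the control (log2 -1.24), and the non-classical H2-T23 fell by 1.06 on the log2 scale. H2 genes are close paralogs and 4T1 carries BALB/c alleles, so the assignment of reads between H2 genes is uncertain. Calr, the calreticulin chaperone of the loading complex, was the member called higher, at log2 0.18.

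Chemokines and cytokines had a median of -1.09, the lowest of the lists with more than 1 tested member. Of 42 listed 27 were tested, of which 21 were called lower, 15 at least 2-fold, and 2 higher. Beside Lcn2 and Cxcl5, the interferon-inducible chemokine Cxcl11 stood at 0.0628, 0.0767 and 0 CPM in the knockdown, against 0.867, 1.31 and 0.655 CPM in the control. The cytokine Il6 was also scarce, at 0.0941, 0.115 and 0.129 CPM in the knockdown, against 1.10, 0.913 and 1.05 CPM in the control. Both genes were separate between groups but rest on few reads. The 2 members called higher were Il18 (log2 0.69), an interleukin 1 family cytokine, and Il34 (log2 0.31), a ligand of the CSF1 receptor.

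Csf3, Il1a and Cp were named after their values were seen. Csf3 encodes granulocyte colony-stimulating factor, and it stood at 46.9, 49.9 and 54.4 CPM in the knockdown, against 217.7, 207.2 and 212.9 CPM in the control (log2 -2.08, SE 0.039). Il1a, the cytokine interleukin 1α, stood at 95.0, 97.8 and 112.1 CPM in the knockdown, against 478.4, 488.0 and 525.6 CPM in the control (log2 -2.29). The copper-carrying acute-phase protein gene Cp averaged 160 CPM in the knockdown and 732 CPM in the control (log2 -2.19). In each of the 3 genes all knockdown libraries lay below all control libraries.

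NF-κB targets overlapped with those lists and moved the same way. Of 31 listed 30 were tested, 25 called lower, 10 at least 2-fold, and 2 higher, with a median of -0.70. Without control replicate 1 or without knockdown replicate 3, 1 was called higher. Lcn2, C3, Il6 and Nos2 had the largest decreases. The increases were small, and the larger was Traf1, a TNF receptor adaptor, at 114 ± 2.38 CPM in the knockdown and 81.7 ± 4.8 CPM in the control (log2 0.48). The 12 leukocyte markers together reached at most 1.14 CPM in any of the 6 libraries, and the 1 tested was called lower (log2 -1.97). Whether other cells contributed to the levels of these genes was not tested.

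**Figure D4:**
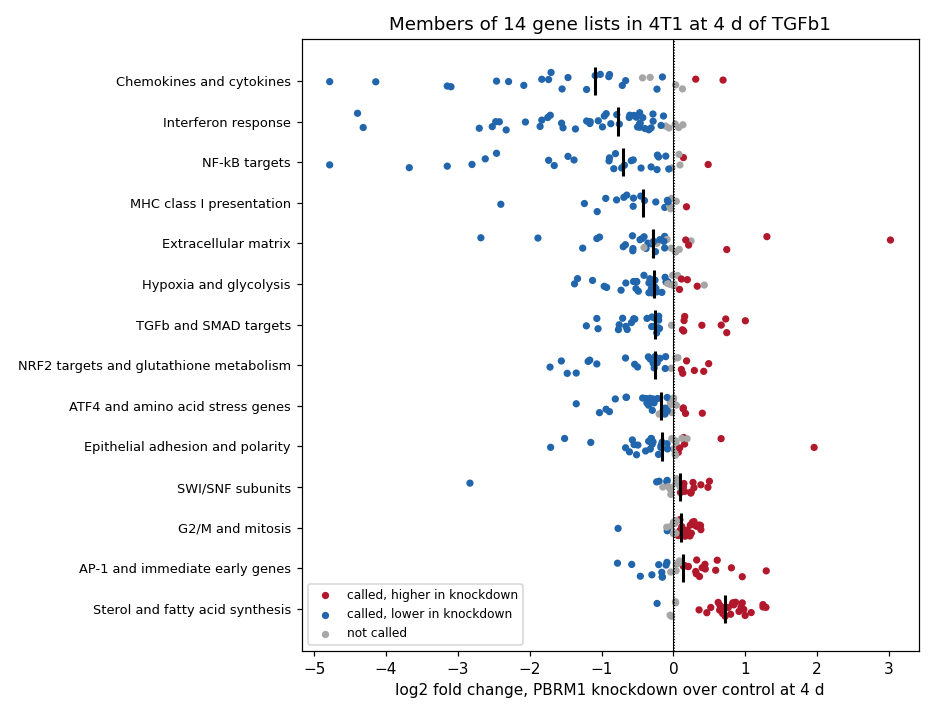
Log2 fold change at 4 d, PBRM1 knockdown over control, of the tested members of 14 gene lists, each point a gene and each black bar the list's median. Chemokines and cytokines (median -1.09) and interferon response genes (-0.77) lie furthest left, and sterol and fatty acid synthesis (0.72) furthest right.

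Enzymes of sterol and fatty acid synthesis rose as a group. Of 34 listed 33 were tested, 28 called higher, 4 of them at least 2-fold, and 1 lower, with a median of 0.72. Without control replicate 2 or without knockdown replicate 1, 2 were called lower. Hmgcs1 (ENSMUSG00000093930, chromosome 13, 119690379 to 119708260), which makes HMG-CoA, stood at 294.1, 284.8 and 284 CPM in the knockdown, against 115.2, 119.7 and 118.3 CPM in the control (log2 1.29, SE 0.0309). Spread within groups was small in that gene beside the difference between groups.

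Later steps of the pathway moved likewise. Mvd, the mevalonate diphosphate decarboxylase, rose by 1.25 and Dhcr7, which carries out the final reduction to cholesterol, by 1.25 on the log2 scale. Scd2, a desaturase of fatty acids, stood at 2823, 2769 and 2678 CPM in the knockdown, against 1512, 1354 and 1387 CPM in the control (log2 0.96), the largest CPM increase of any tested gene. Ebp, a sterol isomerase, was the member called lower (log2 -0.23).

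Genes of EMT did not move as a group. Of 15 EMT transcription factors listed 12 were tested, 4 called higher and 3 lower, or 1 lower with library totals alone. Sox9, a SOX factor of mammary progenitors, stood at 103.9, 112.3 and 114.8 CPM in the knockdown, against 54.2, 52.6 and 57.5 CPM in the control (log2 1.01, SE 0.0418). Snai1 (Snail) rose less, at 37.2, 41.6 and 42.1 CPM in the knockdown, against 32.2, 33.2 and 32.3 CPM in the control (log2 0.30). Neither gene's groups overlapped. Foxc2 rose by 0.29 and Hmga2 fell by 0.22 on the log2 scale. Zeb1 had log2 -0.24 and Zeb2 -0.03, neither passing the test, and Snai2 was below the filter with at most 0.0767 CPM in either group at 4 d.

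Epithelial junction genes were not uniformly changed. Cdh1 (E-cadherin) stood at 468.8, 460.7 and 468.8 CPM in the knockdown, against 473.1, 470.3 and 452.2 CPM in the control, with a log2 of 0.00 that did not pass. Epcam stood at 335.0, 328.9 and 362.1 CPM in the knockdown, against 324.0, 353.5 and 330.0 CPM in the control (log2 0.03, not passing). Groups overlapped in both genes, and both passed as higher with library totals alone, at log2 0.06 and 0.08 (adjusted p = 0.0311 and 0.0259 by edgeR). Over the epithelial adhesion and polarity list, 40 of 42 genes were tested, 23 were called lower and 6 higher, and the median was -0.15. Nectin2, an adherens junction nectin, averaged 48.2 ± 2.08 CPM in the knockdown and 107 ± 3.24 CPM in the control (log2 -1.15). Nectin4, the tight junction scaffold Tjp3 and the membrane protease St14 (matriptase) fell by 1.71, 1.51 and 0.67 on the log2 scale, while the tight junction claudin Cldn1 rose by 1.96 at low counts and the desmosomal plakophilin Pkp1 by 0.66. In the control 21 of the 40 list members were called higher and 14 lower at 4 d than at 0 d. Over all tested genes 39.1% were called higher there and 35.4% lower. Epcam, Nectin2, Nectin4, Tjp3 and St14 were called higher in that comparison, and Cdh1 and Pkp1 lower. It uses the same control libraries at 4 d.

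Of 7 tested keratin genes 4 were called higher and 3 lower. Krt8, a simple epithelial keratin, stood at 1099, 1125 and 1151 CPM in the knockdown, against 854.9, 856.7 and 854.8 CPM in the control (log2 0.40). Krt17 rose by 1.96 at low counts, and the basal keratin Krt14 fell by 0.45 on the log2 scale.

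Mesenchymal markers were mixed, with 3 called higher and 6 lower of 14 tested, or 5 higher with library totals alone. Vim (vimentin) stood at 1903, 1962 and 2033 CPM in the knockdown, against 1700, 1723 and 1716 CPM in the control (log2 0.20). The receptor kinase Axl averaged 645 ± 2.37 CPM in the knockdown and 993 ± 27.2 CPM in the control (log2 -0.62), and the ectonucleotidase Nt5e (CD73) fell by 0.52. The platelet-derived growth factor receptor Pdgfrb stood at 4.27, 4.91 and 4.42 CPM in the knockdown, against 1.46, 2.42 and 1.00 CPM in the control (log2 1.46). Cdh2 (N-cadherin) had 0 CPM in all 6 libraries, and Acta2 (smooth muscle actin) was below the filter at 0.0628, 0 and 0 CPM in the knockdown and 0.434, 0.595 and 0.0437 CPM in the control.

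TGFβ and SMAD target genes were more often lower. Of 33 listed 31 were tested, with 21 called lower, 9 higher and a median of -0.26. Thbs1, thrombospondin 1, an activator of latent TGFβ, stood at 1017, 1037 and 1049 CPM in the knockdown, against 2230, 2297 and 1967 CPM in the control (log2 -1.07). No knockdown library reached the control range in that gene. Ltbp2, a latent TGFβ binding protein family member, fell by 0.77. Tnc (tenascin C) went the other way, at 562.5, 587.9 and 584.4 CPM in the knockdown, against 322.5, 368.4 and 345.3 CPM in the control (log2 0.74), as did the matrix protein Tgfbi (1.00), the CDK inhibitor Cdkn1a (p21, 0.73) and the bHLH inhibitor Id2 (0.67).

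Of the ligands, receptors and SMADs of the superfamily 27 of 38 were tested, 9 called higher and 14 lower. Tgfb1 itself averaged 87.1 ± 5.75 CPM in the knockdown and 98.9 ± 3.34 CPM in the control (log2 -0.19). The type I receptor Tgfbr1 averaged 92.9 ± 5.18 CPM in the knockdown and 127 ± 2.64 CPM in the control (log2 -0.45). Tgfbr3 (betaglycan) had log2 0.74, and the inhibitory SMAD Smad6 -0.58. The other inhibitory SMAD, Smad7, stood at 76.1, 77.7 and 77.5 CPM in the knockdown, against 71.4, 74.3 and 65.8 CPM in the control (log2 0.13), and its call was lost without control replicate 3 (adjusted p = 0.0783 by edgeR).

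Extracellular matrix genes were lower in 23 and higher in 5 of 37 tested, of 54 listed, with a median of -0.28. Postn (periostin) stood at 19.9, 20.5 and 19.2 CPM in the knockdown, against 117.1, 148.6 and 116.6 CPM in the control (log2 -2.68, SE 0.072). Fn1 (fibronectin) stood at 6664, 6774 and 6801 CPM in the knockdown, against 7880, 8194 and 7976 CPM in the control (log2 -0.25). Knockdown and control were separate in both genes. The collagen Col5a3 fell by 1.89 and the basement membrane linker Nid1 by 1.26, whereas Col6a2, a collagen VI chain, averaged 3.79 ± 0.0532 CPM in the knockdown and 0.455 ± 0.229 CPM in the control (log2 3.02).

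Matrix proteases and their inhibitors were divided, with 13 called lower, 7 at least 2-fold, and 8 higher of 26 tested. Besides Mmp13, the stromelysins Mmp3 and Mmp10 fell. Mmp3 stood at 110.7, 109.0 and 132.7 CPM in the knockdown, against 240.5, 230.3 and 260.5 CPM in the control (log2 -1.06). Mmp10 stood at 109.6, 101.5 and 122.4 CPM in the knockdown, against 229.6, 252.4 and 261.2 CPM in the control (log2 -1.16). Both genes had separate groups. Mmp12 fell by 1.88 and Mmp19 by 4.08 on the log2 scale from low levels, and 22.3% of Mmp19's exon bases overlap Tmem198b on the opposite strand. The metalloprotease Adamts1 rose to 113 ± 4.42 CPM in the knockdown, against 64.7 ± 1.46 CPM in the control (log2 0.81), and the plasminogen activator Plat and the membrane metalloprotease Mmp24 had log2 values of 1.02 and 1.36. Integrins were called lower in 9 and higher in 3 of 17 tested, with the β2 chain Itgb2 at log2 -1.01 and the collagen-binding α1 chain Itga1 at 0.84.

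YAP and TEAD targets were called lower in 12 and higher in 5 of 22 tested, or in 3 without control replicate 3, with a median of -0.09. The matricellular Ccn1 (CYR61) averaged 355 ± 15.9 CPM in the knockdown and 700 ± 12.6 CPM in the control (log2 -0.98). The ankyrin repeat protein gene Ankrd1, Ccn2 (CTGF) and the coagulation initiator F3 (tissue factor) fell by 0.82, 0.66 and 1.01. Of Ccn2's exon bases 23.2% overlap Gm15270 on the opposite strand. Dlc1, a GTPase-activating protein, rose by 0.62. The actin and SRF list had 6 higher and 9 lower of 19 tested. There Zyx (zyxin) and Actg1 (γ-actin) rose by 0.41 and 0.37, and the LIM protein Lpp fell by 0.71.

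AP-1 and immediate early genes were more often higher, 16 against 10 called lower of 31 tested, with a median of 0.14. The phosphatase Dusp1 stood at 46.9, 50.6 and 54.2 CPM in the knockdown, against 23.9, 28.2 and 25.7 CPM in the control (log2 0.96). Fos averaged 7.79 ± 0.84 CPM in the knockdown and 4.42 ± 0.12 CPM in the control (log2 0.81), and the zinc finger factor Egr2 and the antiproliferative Btg2 rose by 1.29 and 0.61. Atf3, the stress-induced ATF/CREB factor that the series also knocked down in NMuMG, stood at 8.57, 6.36 and 7.33 CPM in the knockdown, against 6.11, 5.28 and 5.59 CPM in the control (log2 0.40, SE 0.107). Its groups were separate by a small margin. At 0 d Atf3 was called lower in the knockdown (log2 -0.35), and its interaction was 0.75 (SE 0.138). In PBRM1 knockout NMuMG at 72 h Atf3 was also called lower (log2 -2.26). Ier3 and the small MAF factor Maff fell by 0.78 and 0.58.

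Growth factor genes were called in both directions, 11 higher and 12 lower of 33 tested, with a median of -0.03. Btc (betacellulin, an EGF receptor ligand) rose by 1.27, Fgfbp1, which releases FGFs from matrix, fell by 1.65, and Igfbp7 averaged 241 ± 2.52 CPM in the knockdown and 585 ± 36.9 CPM in the control (log2 -1.28). Wnt and Notch genes were called higher in 14 and lower in 9 of 33 tested, with a median of 0.11. Jag1, a Notch ligand, stood at 258.4, 255.1 and 265.6 CPM in the knockdown, against 114.5, 128.4 and 115.4 CPM in the control (log2 1.12, SE 0.036), and the Wnt receptor Fzd1 rose by 1.61. Of 10 tested imprinted genes 4 were called higher and 3 lower. Mest rose by 1.47 and Plagl1 by 1.83, and 23.1% of Mest's exon bases overlap Copg2 on the opposite strand.

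Hypoxia and glycolysis genes were called lower in 28 and higher in 4 of 39 tested, with a median of -0.26. The count called higher was 2 with any of control replicates 1 and 2 and knockdown replicates 2 and 3 left out. Car9 (carbonic anhydrase IX), a HIF target, stood at 59.2, 76.0 and 76.1 CPM in the knockdown, against 146.8, 163.1 and 148.2 CPM in the control (log2 -1.13). The enolase Eno2, the glycolytic regulator Pfkfb3 and the HIF prolyl hydroxylase Egln3 fell by 1.38, 1.33 and 0.96. Hk1 (hexokinase 1) and Vegfa rose by 0.33 and 0.19.

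ATF4 and amino acid stress genes were lower in 21 and higher in 4 of 34 tested (median -0.17), or higher in 1 without knockdown replicate 1, and NRF2 targets lower in 19 and higher in 6 of 28 tested (median -0.26). Slc7a11, the cystine transporter that both programmes use, averaged 4.57 ± 0.6 CPM in the knockdown and 11.8 ± 1.08 CPM in the control (log2 -1.35). Atf5, Cebpb and the glutathione-degrading Chac1 fell by 1.03, 0.94 and 0.89, and the tryptophanyl-tRNA synthetase Wars rose by 0.40. Prdx1, a peroxiredoxin, stood at 144.2, 131.5 and 141.1 CPM in the knockdown, against 443.1, 455.8 and 472.2 CPM in the control (log2 -1.72, SE 0.0311). The haem oxygenase Hmox1 and the glutathione transferase Gsta4 fell by 1.48 and 1.56, and Osgin1 and Srxn1 rose by 0.49 and 0.42. Prdx1 and the glutathione transferases belong to families with close copies or pseudogenes.

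Cell cycle genes shifted slightly upwards. G2/M genes were called higher in 19 and lower in 2 of 30 tested (median 0.11). The count called lower was 1 with both other scalings, no filter on low counts, DESeq2 or the 6 libraries alone. It was also 1 without control replicate 1 or 3. Replication genes were called higher in 17 and lower in 6 of 39 (median 0.07). Aurkb (Aurora B kinase) averaged 121 ± 5.25 CPM in the knockdown and 93.4 ± 2.26 CPM in the control (log2 0.38), and the transcription factor Mybl2 also rose by 0.38. Kif11, the spindle motor Eg5, went against the list, at 124.4, 129.8 and 125.6 CPM in the knockdown, against 213.8, 208.8 and 224.9 CPM in the control (log2 -0.77). The groups were far apart in that gene. Among S phase genes Ccne1 (cyclin E1) and E2f2 rose by 0.61 and 0.58, and the origin proteins Orc1 and Mcm6 fell by 0.38 each. The D-cyclin partner kinase Cdk6 fell by 0.63 and Mycl by 0.86. Of 26 tested p53 targets 9 were called higher and 9 lower, with the death receptor Fas at log2 -1.80.

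The abundant transcripts with the largest CPM decreases were Eef1a1, Msn, Fn1, Thbs1, Eef2 and mt-Co1, and those with the largest increases beside Scd2 were Actg1, Pabpc1, mt-Nd5, Krt8 and Vim. Msn (moesin), a linker of membrane and actin, stood at 2222, 2365 and 2344 CPM in the knockdown, against 3807, 3887 and 3861 CPM in the control (log2 -0.74, SE 0.0214). Eef1a1, the translation elongation factor 1α, averaged 8160.3 ± 262.1 CPM in the knockdown and 10167 ± 87.3 CPM in the control (log2 -0.32), and elongation factor Eef2 fell by 0.22. Pabpc1, the poly(A)-binding protein, and mt-Nd5 rose by 0.12 and 0.25, and mt-Co1 fell by 0.13. The groups of mt-Co1 overlapped, at 7152, 7424 and 8125 CPM in the knockdown, against 8067, 8202 and 8564 CPM in the control. Of the 13 mitochondrially encoded mRNAs 1 was called higher and 3 lower, or 2 higher without control replicate 3 or without knockdown replicate 2.

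The same comparison without TGFβ1 shared no library with that at 4 d. At 0 d 7072 genes (51%) were called, 27.5% of genes higher and 23.5% lower in the knockdown, and 604 (4.36%) were at least 2-fold apart. Called in the same direction at both times were 4560 genes, 59.7% of those called at 4 d and 64.5% of those called at 0 d, and 485 were called in opposite directions. Among genes at least 2-fold apart, 280 were in the same direction at both times (39.4% of the 4 d list and 46.4% of the 0 d list) and 5 in opposite directions. A test of the interaction, the knockdown difference at 4 d minus that at 0 d, called 3918 genes (28.3%), 13.2% higher and 15.1% lower.

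Sterol and fatty acid synthesis differed most plainly between times. At 0 d 4 members were called higher and 20 lower with a median of -0.21, and in the interaction 32 of 33 were called higher and 0 lower. Hmgcs1 was at 170.1, 163.2 and 160.4 CPM in the knockdown at 0 d, against 174.6, 165.3 and 171.9 CPM in the control, groups that overlapped (log2 -0.05, adjusted p = 0.161 by edgeR). Its interaction was 1.34 (SE 0.0437). In the control alone, 27 of the 33 members were called lower and 4 higher at 4 d than at 0 d, where 35.4% of all genes were called lower and 39.1% higher. That comparison uses the same control libraries as the others.

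Interferon response genes were called higher in 8 and lower in 18 of 48 at 0 d, with a median of -0.18, and the interaction was called lower in 32 and higher in 1. In the control 47 of the 48 were called higher at 4 d than at 0 d. Nlrc5 stood at 10.0, 10.9 and 11.9 CPM in the knockdown at 0 d, against 24.8, 27.3 and 28.7 CPM in the control (log2 -1.29), and its interaction was -1.11 (SE 0.105). MHC class I genes had interactions called lower in 15 and higher in 2 of 20, or higher in 1 with any of 8 of the 12 libraries left out. Csf3 and Cp had smaller differences at 0 d, at log2 -0.28 and -0.18, and interactions of -1.80 and -2.01.

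**Figure D5:**
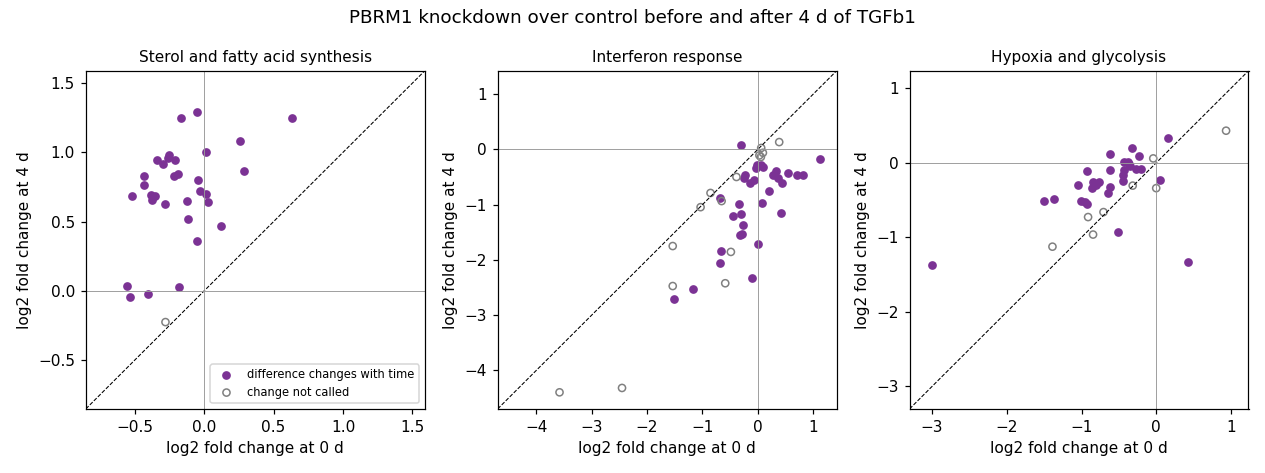
Log2 fold change, PBRM1 knockdown over control, at 0 d (horizontal) and at 4 d of TGFβ1 (vertical) for the tested members of 3 gene lists, with the line of equal values dashed and genes whose interaction passed the test filled. The interaction was called higher for 32 of 33 sterol and fatty acid synthesis genes, lower for 32 of 48 interferon response genes, and higher for 28 of 39 hypoxia and glycolysis genes.

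Hypoxia and glycolysis genes, by contrast, had the larger difference at 0 d, with 33 called lower and 2 higher and a median of -0.61. Their interaction was called higher in 28 and lower in 3. ATF4 genes were likewise lower in 28 and higher in 0 of 34 at 0 d (median -0.49), with 24 interactions called higher and 1 lower. Lcn2 was already lower in the knockdown at 0 d, at 0.0449, 0.213 and 0.200 CPM in the knockdown and 2.77, 2.32 and 2.04 CPM in the control, and its interaction of -0.91 did not pass (adjusted p = 0.324 by edgeR). Mmp3 changed direction. At 0 d it stood at 52.3, 47.4 and 51.0 CPM in the knockdown, against 13.5, 12.1 and 14.6 CPM in the control (log2 1.91). Mmp10 changed direction too (log2 1.02 at 0 d). Calls were also opposite to those at 4 d for Atf3 (log2 -0.35 at 0 d), Krt14 (0.98), Smarca2 (0.14) and Scd2 (-0.26), among others.

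In PBRM1 knockout NMuMG cells at 72 h of TGFβ1, 7161 of 14345 tested genes (49.9%) were called, 24.3% higher and 25.6% lower in the knockout. Pbrm1 mRNA there had log2 -0.18, so its level is a weak check of the knockout label. That experiment is a separate table with its own control, and the difference between the cell lines was not tested. Of 12331 genes tested in both, 1894 were called in the same direction (26.8% of the 4T1 list and 29.2% of the NMuMG list) and 2382 in opposite directions. Among genes at least 2-fold apart, 77 were in the same direction (16.8% of the 4T1 list and 10.1% of the NMuMG list) and 33 in opposite directions. C3 fell in both, by 3.68 in 4T1 and 4.04 in NMuMG on the log2 scale. Some lists were mixed in NMuMG: interferon response genes were higher in 6 and lower in 8 of 35, chemokines and cytokines higher in 6 and lower in 7 of 17, and sterol and fatty acid genes higher in 12 and lower in 7 of 33. As in 4T1, more members were called lower than higher for ATF4 genes (20 against 7 of 34), NRF2 targets (15 against 6 of 27) and epithelial adhesion and polarity genes (17 against 5 of 30). G2/M genes were called lower in all 30 tested in NMuMG and hypoxia and glycolysis genes higher in 32 and lower in 2 of 37, the opposite directions to most of those called in 4T1 at 4 d. Kitl had log2 2.22 in 4T1 and -1.25 in NMuMG, and Fgfr1 2.16 in 4T1 and 1.20 in NMuMG.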

How the data were processed

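The deposited 4T1 and NMuMG tables give the counts per gene that the authors obtained, per the file headers. A strand-preserving Illumina mRNA kit with paired reads was used for 4T1, per the labels' protocols. The tools listed in the submitters' processing notes, with no role given, are STAR 2.7.10a, HISAT2, Trim Galore 0.6.7, edgeR and DESeq2, and the build is mm10. The counting program and its strand setting are not given in the sources used here.

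All 12 4T1 libraries, in 4 groups of 3, entered a single edgeR 4.0.16 quasi-likelihood fit (R 4.3.3), with TMM factors and filterByExpr (minimum count 10, minimum total 15). Tests were two-sided, Benjamini-Hochberg adjustment ran over all genes tested, and the threshold was 0.05. The 24 NMuMG libraries of the knockout experiment were fitted alone. An exact test of 3 against 3 cannot go below 0.1. Named genes were SWI/SNF subunits, an EMT panel, the 12 largest fold changes per direction at 10 CPM or more, the 6 largest CPM differences and interactions per direction, and up to 4 called members per list and direction. The 35 lists and the comparisons were chosen with earlier results of these data known. Alternatives were other scalings and filters, DESeq2 1.42.0, a replicate block, the 6 libraries alone and leaving out each library. The procedure was tested on simulated data. A few genes that these rules name are not reported here. Of 158 genes examined closely, 29 have exons overlapping another tested gene. Beyond the overlaps given with their genes, the largest shares of exon bases were 20.7% in Cebpb and 13.6% in Mmp24, both on the opposite strand.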

Additional observations from a re-analysis of the deposited data

Results flagged for a closer look

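For 24 of 25 genes examined, the difference between PBRM1 knockdown and control cells at 4 d was not the same as that at 0 d by the interaction term of the edgeR fit (adjusted p under 0.05), beside 28.3% of all tested genes. Of the genes examined 12 were named for the size of their interaction and the others with their values seen, so this count says nothing of its own. Values are log2, the difference at 4 d minus that at 0 d. The interaction was positive for Mvd (1.42), Hmgcs1 (1.34) and Scd2 (1.22) of lipid synthesis, and for Eno2 (1.63), Slc16a6 (1.50), Ciart (1.47), Kitl (1.37) and Pbrm1 itself (0.22). Eno2 was lower in the knockdown at both times and less so at 4 d. Slc16a6, a monocarboxylate transporter family member, shares 21.5% of its exon bases with Amz2 on the opposite strand.

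Among the genes examined, negative interactions were largest for Myo7a (-3.29), an unconventional myosin, Mmp3 (-2.97), the secreted protease inhibitor gene Slpi (-2.62), Mgst2 (-2.37), Mmp10 (-2.17), Gbp4 (-2.02) and Cp (-2.01). Slpi stood at 5.52, 5.56 and 7.08 CPM in the knockdown at 4 d, against 37.1, 39.4 and 43.9 CPM in the control, and at 2.02, 2.34 and 2.94 CPM in the knockdown at 0 d, against 2.85, 2.74 and 2.48 CPM in the control. Myo7a was under 1 CPM in all 6 libraries at 0 d. Gbp4 belongs to a family of near-identical genes. Mmp13 (-1.81), Csf3 (-1.80), Fgfr1 (-1.21), Nlrc5 (-1.11), Inhbb (-1.04), C3 (-0.98), Cxcl5 (-0.84), H2-D1 (-0.46) and Jag1 (-0.27) were also negative. Fgfr1, Inhbb and Jag1 were higher in the knockdown at both times and less so at 4 d. At 0 d Fgfr1 had log2 3.37, on 31 counts over the control libraries, and Inhbb 2.64. The call for Mmp13 was lost without knockdown 0 d replicate 1 (adjusted p = 0.0606 by edgeR), where its level was about 1 CPM or less in every 0 d library.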

How the results depend on the processing

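Of 158 single-gene differences at 4 d, 153 kept their direction and their side of the threshold under all alternatives that tested them. So did 24 of 25 interactions. Under the stricter filter 148 of the differences at 4 d kept both and 1 reversed. The rest were too low for that filter and were judged on the other alternatives alone. The exceptions at 4 d were Phf10, Smad7, Cdh1, Epcam and Zeb2, and in the interaction Mmp13. Cdh1, at 0.00 in log2, had -0.00195 under a stricter filter and between -0.0168 and 0.0141 with a library left out, and passed at 0.0609 with library totals alone (adjusted p = 0.0311 by edgeR). Epcam, at 0.03, had between -0.0213 and 0.0635 with a library left out and passed at 0.0835 with library totals alone (adjusted p = 0.0259 by edgeR), and Zeb2, at -0.03, had 0.0251 with library totals alone. Of 140 counts of list members called higher or lower, 104 stayed within 1.5 times under all alternatives run. At 4 d 14 of 70 moved further, none of them a count above 5, and of the interaction counts 22 of 70 did, the largest being G2/M genes called higher (20, and 12 without control 4 d replicate 2). The count of genes at least 2-fold apart at 4 d was 710 and dropped to 401 under a stricter filter (a mean of at least 1 CPM), which tests 11943 genes. The count of called genes at 4 d was 7049 to 7330 with a library left out, 7086 by DESeq2 and 7235 with the 6 libraries alone. Equal replicate numbers did not pair the libraries (correlations of 0.00108, -0.0317 and -0.00178 at 4 d), and with the replicate block 7638 genes were called. Phf10 lost its call under 8 alternatives. Low-count genes such as Oas2, Cxcl11 and Il6 are limited by depth.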
